A study of Mus musculus with 10 samples.

Results

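The genes of the mouse major histocompatibility complex (MHC, called H2 in the mouse) and of the antigen presentation machinery were followed in hair follicle stem cells (HFSCs). All rows whose symbol begins with H2- were taken, together with B2m, Tap1, Tap2, Tapbp, Cd74, Ciita, Nlrc5, Psmb8, Psmb9 and Psmb10. These are 53 of the 37298 gene rows of the expression table, of which 42 carry an H2- symbol and 11 one of the other symbols, because Ciita is listed in a pair of rows. By role, 30 rows are class I heavy chains or class I-like loci, 4 hold the class I light chain and the loading machinery, 1 is the class I regulator and 3 are immunoproteasome subunits. A further 13 rows belong to class II (5 chains, 6 for loading and 2 for its regulator Ciita). The last 2, H2-Ke2 and H2-Ke6, lie among the H2 genes but belong to neither class: H2-Ke2 encodes a subunit of the prefoldin chaperone, and H2-Ke6 a steroid dehydrogenase.

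Class I molecules sit on nearly every nucleated cell, and pair a heavy chain with the light chain beta-2-microglobulin. They show peptides that the proteasome cuts and the TAP transporter carries into the endoplasmic reticulum. Class II molecules are made chiefly by antigen-presenting leukocytes, such as the Langerhans cells of the epidermis, and show peptides from endocytosed protein. In keratinocytes class II is known mainly as a response to interferon-gamma, through the regulator CIITA.

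The study asked how SOX9, a transcription factor of bulge stem cells, acts in the hair follicle. RNA was sequenced from HFSCs of mouse back skin while follicles rested between hair growth phases (telogen), sorted as integrin α6-high, CD34-positive, ScaI-negative and YFP-positive cells. The RNA libraries number 4: a Sox9 conditional knockout (cKO) label stands on 2, and 2 are controls, called Het in the titles and wild type in the genotype field. SOX9 binding was mapped by ChIP-seq, which sequences DNA pulled down with an antibody to SOX9, in 2 HFSC samples and 1 sample of interfollicular epidermis (IFE). All RNA animals were of a mixed C57BL6 background and, cKO and control alike, received RU486, which activates the Cre fused to the progesterone receptor (CrePGR). Replicate 1 of each genotype was male, of day 75, treated on days 48 to 61, and replicate 2 was female, of day 80, treated on days 53 to 66. For ChIP, cells of CD-1 females aged 52 to 60 days and given no RU486 were used, sorted as integrin α6-high and ScaI-negative, with CD34 positive for HFSCs and negative for IFE. Neither the promoter that drives the Cre nor any pooling of animals is stated in the labels, so p-values measure only the spread between these libraries.

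Values are FPKM, fragment counts divided by transcript length and by the mapped fragments of the library, so levels can be compared between genes. The sums of FPKM ran from 555420 to 903766 per library and were higher in replicate 2, and the depth behind them is unknown. Sox9 itself was listed at 71.3 FPKM in labelled cKO 1, 82.7 in control 1, 80.5 in labelled cKO 2 and 46.5 in control 2, which does not separate the genotypes, so the libraries are called by their labels. The cells had the stem cell keratin Krt15 at 8703 to 10894 FPKM and the sort marker Cd34 at 460 to 680, so both were present in every library. Other bulge markers were listed in all but were not even. In the order just used, Lgr5 stood at 110, 137, 38.0 and 43.8 FPKM and Nfatc1 at 46.7, 76.7, 14.1 and 19.8. Tcf7l1 stood at 12.3, 19.5, 5.67 and 5.41, so these were lower in both replicate 2 libraries. Lhx2 stood at 114, 359, 87.1 and 195, lower in both labelled cKO libraries. Bulk libraries cannot tell fewer cells of a type from less RNA per cell.

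Promoter sequences are given for 7 of the members whose levels are described, to show the letters at the elements known from MHC promoters. They are RefSeq promoters (GRCm38.p6), each from 250 bases before to 50 after a gene's start, and 39 of the 53 rows matched one. Short elements known from MHC promoters were searched on both strands: the enhancer A kappaB core GGGATTCC, the Y box CTGATTGG, the X box core AGNAACNG and the interferon response core GAAANNGAA. The first 3 stretches run from the kappaB core to a CTGATTGG match in class I genes, with both matches in capitals. They are read on the strand of the gene, where that match reads CCAATCAG, since it lies on the opposite strand. The letters attgggtg, between the matches in all 3 stretches, are not CTGATTGG and were not searched. Which letters form the Y box of a class I promoter was not determined, so the match is named by its letters.
H2-K1, chr17:34000332-34000467, minus strand: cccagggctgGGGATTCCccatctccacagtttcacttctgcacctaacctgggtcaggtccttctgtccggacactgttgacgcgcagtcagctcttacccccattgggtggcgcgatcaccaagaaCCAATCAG
H2-D1, chr17:35262914-35263058, plus strand: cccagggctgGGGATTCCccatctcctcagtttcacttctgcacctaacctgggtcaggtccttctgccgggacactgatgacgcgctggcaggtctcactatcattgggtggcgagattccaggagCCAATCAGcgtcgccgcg
H2-Q7, chr17:35439013-35439154, plus strand: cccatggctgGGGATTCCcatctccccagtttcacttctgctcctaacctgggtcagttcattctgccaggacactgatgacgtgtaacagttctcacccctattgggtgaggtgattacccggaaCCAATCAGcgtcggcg
The kappaB core stood in 5 of the 43 promoters of these genes (both starts of H2-K1, H2-D1, H2-Q6 and H2-Q7), against 1.06% of all 32851 promoters. From the first base of the kappaB core to that of the CTGATTGG match there were 118 bases in H2-K1 and 116 in H2-Q7. In H2-D1 and H2-Q6 there were 117.

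Of the class II promoters, 4 held a CTGATTGG match, each on the gene's own strand. Those of H2-DMa, H2-DMb1, H2-DMb2 and H2-Ob had no match to these letters. In H2-Eb1, which encodes the beta chain of the class II molecule I-E, the capitals mark an X box core followed by the Y box; in H2-Aa, the alpha chain of I-A, they mark the Y box.
H2-Eb1, chr17:34305765-34305822, plus strand: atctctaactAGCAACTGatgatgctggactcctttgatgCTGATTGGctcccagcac
H2-Aa, chr17:34287857-34287884, minus strand: agagaattttCTGATTGGttctggcgag
A CTGATTGG match was in 21 of the 43 promoters, against 4.10% of all. In 13 class I or class I-like genes and in Tap1 the match lay on the strand opposite to the gene. In the class II genes H2-Aa, H2-Eb1, H2-Eb2 and H2-Oa, as in Psmb9, it lay on the gene's own strand. The matches of class I and class II need not be the same element, so the orientation of the Y box was not compared. Tap1 and Psmb9 are read away from each other, and their promoter windows overlap by 275 of 300 bases. The same CTGATTGG match thus stands in both windows.
Tap1, chr17:34187324-34187351, plus strand: gctcggctttCCAATCAGcggctgcgcg
B2m, chr2:122147538-122147566, plus strand: ataagaacatGAAACTGAAaatgggaaag
In B2m the capitals mark an interferon response core, which 4 of the 43 promoters held, against 8.56% of all. The X box core was in 6 of 43, against 17.4% of all, and a SOX core in 17 of 43, against 33.2% of all. Of the SOX cores searched, ACAAAG was found in 15 promoters, ACAATG in 4, and finally AACAAT in 2. A match is a description of the letters and not a bound site.

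Class I genes dominated in every library. B2m, the light chain, stood at 661 FPKM in labelled cKO 1, 564 in control 1, 1069 in labelled cKO 2 and 1111 in control 2. H2-K1 (chr17:34132961-34137278 in the mm9 coordinates of the table), one of the 2 classical heavy chains, stood at 422, 367, 626 and 700 FPKM in the same order. H2-D1 (chr17:35399674-35404444), the other classical chain, stood at 290, 274, 434 and 486. All 3 genes were above the 99th percentile of listed rows in every library, and on the FPKM scale each was higher in both replicate 2 libraries than in both replicate 1 libraries, a direction that turned under quantile normalization (values given with the comparison of replicates). H2-K1 and H2-D1 together made 66.7 to 69.0% of the summed FPKM of the class I rows.

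The class I-like genes spanned a wide range. H2-T23, which encodes Qa-1, a ligand of inhibitory receptors of natural killer cells, stood at 68.3, 77.1, 121 and 102 FPKM. H2-Q7, of the Qa-2 antigens, stood at 48.7, 50.8, 78.0 and 111. Of the 28 class I-like rows, 17 reached a mean of 1 FPKM over the 4 libraries, the threshold for testing. In falling order of mean after those 2 came H2-Q6 (57.4), H2-T22 (49.6), H2-Gs10, H2-Q8 (30.7), H2-T10 (18.9), H2-K2 (16.3), an H2-Q2 row (9.17), H2-Q10 (8.05), H2-Bl (4.36), the other H2-Q2 row (3.25), H2-M3, H2-M2 (2.24), H2-T24 (1.27), H2-T3 (1.21) and H2-M5 (1.10), where a value in brackets is the mean FPKM of 4 libraries. By gene identifier, the H2-Q2 row at 9.17 is now named H2-Q1, the H2-Q8 row H2-Q5 and the H2-Gs10 row H2-Q4. H2-M3, which presents formylated bacterial peptides, stood at 3.59, 2.53, 3.57 and 2.98 FPKM. Most neighbours in this order overlapped in range between libraries, and reads of near-identical copies may have been split among H2-Q and H2-T rows, so their single levels are uncertain.

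The loading machinery was well represented. Tap1 stood at 41.7, 39.4, 56.7 and 66.9 FPKM and its partner Tap2, the other chain of the peptide transporter, at 41.1, 40.0, 47.8 and 49.0. Tapbp (tapasin), which holds the heavy chain at the transporter, stood at 67.9, 69.4, 56.5 and 62.7 FPKM and was the only tested member with both replicate 2 libraries below both replicate 1 libraries. Nlrc5, the regulator that acts on class I promoters, stood at 9.93, 13.9, 8.08 and 10.2.

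**Figure D1:**
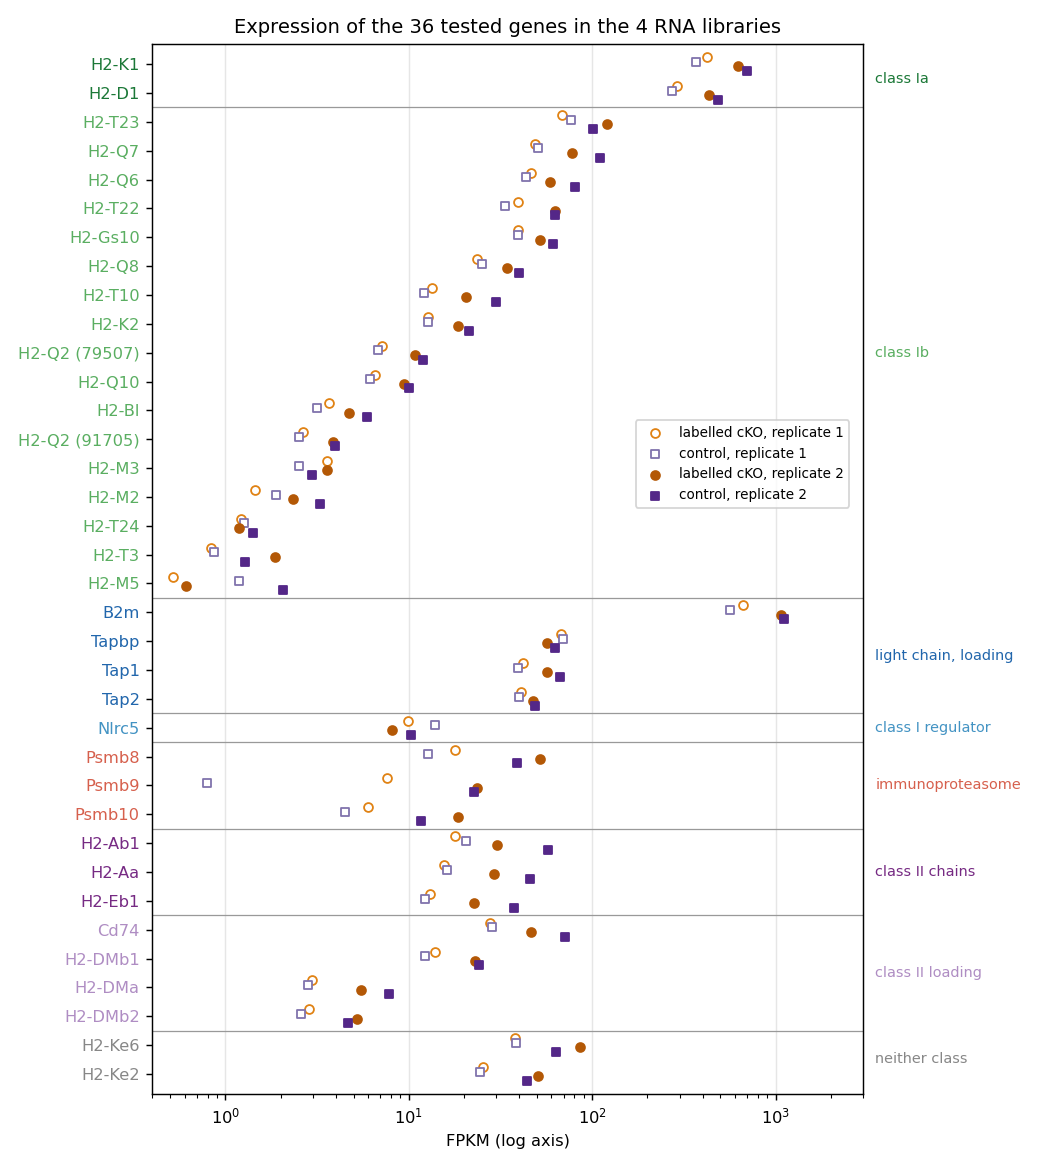
FPKM (log axis) of the 36 tested genes, grouped by role, with circles for labelled cKO, squares for control, open symbols for replicate 1 and filled for replicate 2. B2m, H2-K1 and H2-D1 lie furthest right, at 274 to 1111 FPKM, and Psmb9 in control 1 stands apart from its other 3 libraries at 0.793.

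Class II chains were lower but clearly listed. H2-Ab1, the beta chain of I-A, stood at 17.8 FPKM in labelled cKO 1, 20.4 in control 1, 30.5 in labelled cKO 2 and 57.7 in control 2. H2-Aa stood at 15.6, 16.1, 29.3 and 45.6, and H2-Eb1 at 13.0, 12.3, 22.8 and 37.5. Control 2 was the highest library for all 3 chains and the replicate 1 libraries the lowest. The 3 chains kept a similar proportion to each other, with H2-Aa at 0.787 to 0.962 of H2-Ab1. The alpha chain pseudogene H2-Ea-ps was listed at 0 in all 4 libraries, and H2-Eb2 reached at most 0.00945 FPKM.

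The tested class II loading genes were likewise higher in both replicate 2 libraries, but not all were highest in control 2. Cd74, the invariant chain that guards the peptide groove, stood at 27.8, 28.4, 46.4 and 71.0 FPKM. H2-DMb1, a beta chain of the peptide exchanger H2-DM, stood at 13.9, 12.3, 23.0 and 24.1. H2-DMa, the alpha chain of H2-DM, stood at 2.96, 2.82, 5.48 and 7.83, and H2-DMb2, the other beta chain, at 2.87, 2.59, 5.22 and 4.68, so that labelled cKO 2 was the highest library for H2-DMb2. H2-Oa and H2-Ob, the chains of the inhibitor of H2-DM, were at most 0.361 and 0.200 FPKM, and the 2 rows of Ciita at most 0.192 and 0.0816. The 3 tested chains and the invariant chain were thus listed at 12.3 to 71.0 FPKM beside a regulator below 1 in every library. In all, 17 of the 53 rows were below the threshold, none reached 1 FPKM in any library, and 5 (H2-Ea-ps, H2-M1, H2-M10.1, H2-M11 and H2-T9) were at 0 throughout.

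Summed over its rows, class I reached 1031 FPKM in labelled cKO 1, 962 in control 1, 1545 in labelled cKO 2 and 1736 in control 2. The class II chains summed to 46.3, 48.8, 82.6 and 141. Class I thus exceeded the class II chains 22.3, 19.7, 18.7 and 12.3 times (median 19.2, SD 4.22, n = 4 libraries), the ratio being lowest in control 2. The ratio rests on the most abundant class I genes: the median tested class I gene was only 0.468 to 0.818 times the median tested class II chain. Against its summed heavy chains, B2m kept a narrow ratio of 0.586 to 0.692.

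Leukocyte markers were low but listed in all 4 libraries, and their part in the class II levels was not tested. The 11 pan-leukocyte markers summed to 8.93, 8.58, 22.3 and 31.0 FPKM in the order used above, and the 10 T cell markers to 8.98, 8.08, 13.3 and 24.5. Both lists were highest in control 2, as the class II chains were. Of the T cell sum, Thy1 made 5.44, 4.40, 9.77 and 13.7 FPKM. Of the pan-leukocyte sum, Cd52 made 1.70, 1.61, 6.23 and 8.05. Coro1a made 3.26, 2.61, 8.64 and 7.01 of the same sum and was highest in labelled cKO 2. The 11 markers of Langerhans and other myeloid cells summed to 19.4, 17.7, 37.0 and 31.9, with labelled cKO 2 above control 2. Of that sum, Itgam, an integrin of myeloid cells, made 9.57, 7.13, 27.6 and 20.3 FPKM. Cd207 (langerin), which defines Langerhans cells, stood at 2.72, 3.62, 3.93 and 4.95. Ptprc (CD45), carried by all leukocytes, stood at 0.152 to 0.390 FPKM, below the class II chains in every library, and the B cell marker Ms4a1 was listed at 0 in all. Among markers of differentiated epidermis, another cell type the sort could hold, the 10 listed rows summed to 2537, 2681, 4689 and 7341, also highest in control 2.

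**Figure D2:**
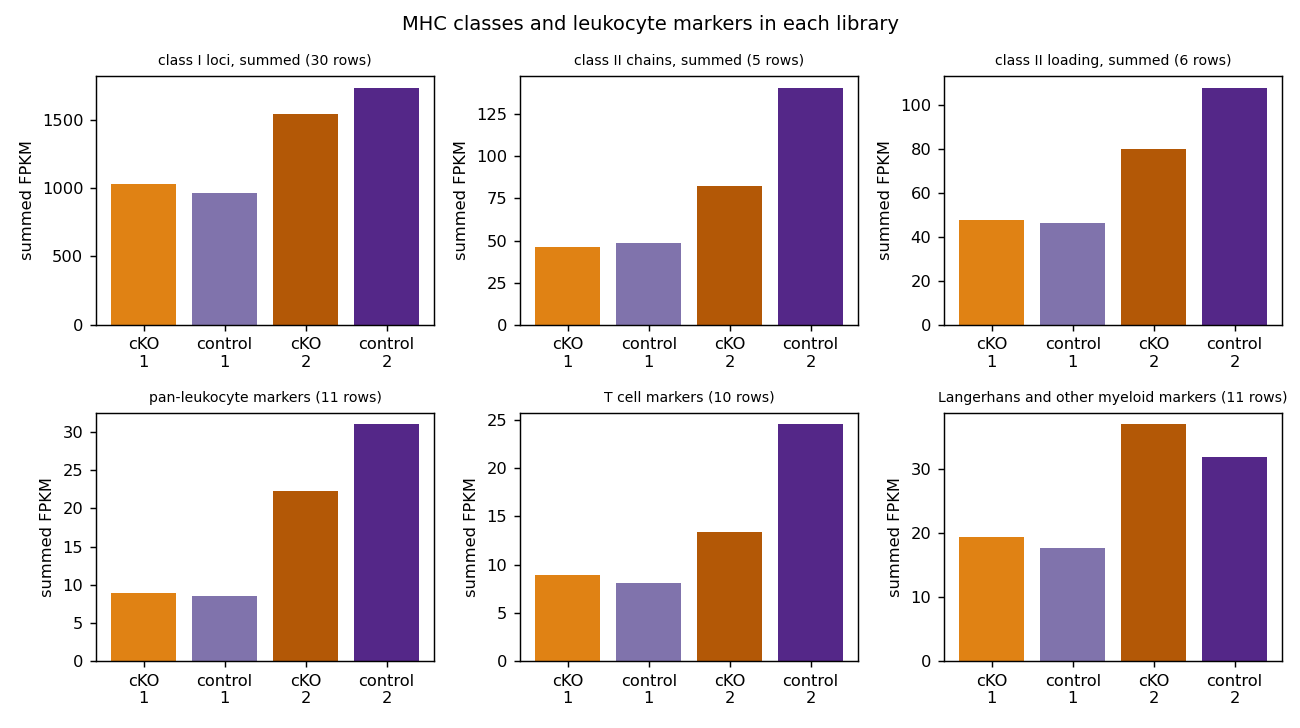
Summed FPKM (bars from 0) of class I loci, class II chains, class II loading and 3 lists of leukocyte markers in each library. Class II chains run 46.3, 48.8, 82.6 and 141 and T cell markers 8.98, 8.08, 13.3 and 24.5 in the order drawn. The myeloid sum is highest in labelled cKO 2 at 37.0, of which Itgam makes 27.6.

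The first comparison asks which of these genes differ between labelled cKO and control. None of the 36 tested members was called by limma with Benjamini-Hochberg adjustment at 0.05, nor was any of the 14455 genes tested (0% called), and no member had an unadjusted p under 0.05, against 0.643% of all genes. With the replicate number as a block, 41 of the 14455 genes were called (0.284%), none of them a member, and 5 of the 36 members (13.9%) had an unadjusted p under 0.05, against 11.4% of all genes. The members' share was thus near the background. Deviations from the group means ran together in libraries of the same number, so the values are given within the pairs that share a replicate number.

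The immunoproteasome subunits replace the standard catalytic subunits of the proteasome under interferon. Psmb8, which replaces Psmb5, stood at 18.0 FPKM in labelled cKO 1 against 12.8 in control 1, and at 52.1 in labelled cKO 2 against 39.1 in control 2. Psmb10, which replaces Psmb7, stood at 6.02 against 4.48 and at 18.5 against 11.6. Labelled cKO was above control within each pair for both genes, while the genotypes overlapped over all 4 libraries. Psmb9, which replaces Psmb6, stood at 7.60 against 0.793 in replicate 1 and at 23.4 against 22.7 in replicate 2. With the block, the differences on the log2(FPKM + 1) scale were 0.43 ± 0.13 (limma SE) for Psmb8, 0.49 ± 0.17 for Psmb10 and 1.15 ± 0.45 for Psmb9, with limma adjusted p of 0.366, 0.387 and 0.409. For Psmb9 the within-pair differences were 2.26 and 0.04, so its value rests on the library control 1. Relative to the subunit it replaces, Psmb8 stood at 0.388 against 0.305 of Psmb5 in replicate 1 and at 0.547 against 0.410 in replicate 2. For the other pairs of subunits, Psmb10 stood at 0.0630 against 0.0480 of Psmb7 in replicate 1 and at 0.0985 against 0.0690 in replicate 2, and Psmb9 at 0.0773 against 0.00944 of Psmb6 in replicate 1 and, in the other direction, at 0.113 against 0.130 in replicate 2. The listed loci span 15239 bases for Psmb9, 18601 for Psmb8 and 31742 for Psmb10. Of 5 equal classes of span, counted from the shortest, Psmb9 falls in class 2 and Psmb8 and Psmb10 in class 3, where 138 and 107 of the genes tested had a positive and 156 and 142 a negative difference at an unadjusted p under 0.05 with the block.

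Class II differed between the pairs. In replicate 1 the summed chains of labelled cKO were 0.950 of control, and in replicate 2 they were 0.586. H2-Ab1 differed by -0.19 within replicate 1 and by -0.90 within replicate 2, and by -0.54 ± 0.19 with the block (limma adjusted p = 0.387). H2-Aa differed by -0.04 and -0.62, H2-Eb1 by 0.08 and -0.70, and Cd74 by -0.03 and -0.60. Of the 7 tested class II genes, 6 were lower in labelled cKO 2 than in control 2, H2-DMb2 being the exception at 0.13, and 3 were lower in labelled cKO 1 than in control 1. Within replicate 2 the summed pan-leukocyte markers of labelled cKO were 0.721 of control, with 10 of 11 lower, and the T cell markers 0.544, with 8 of 10 lower. The summed myeloid markers were 1.16 of control, although 7 of 11 were lower, with Itgam at 27.6 FPKM against 20.3. Markers of differentiated epidermis summed to 0.639 of control there, with 10 of 10 rows lower. Within replicate 1 the 4 ratios were 1.04, 1.11, 1.10 and 0.946. The part of these cells in the class II difference was not tested, and neither was the difference between the pairs.

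Class I showed no common direction. Of the 19 tested class I and class I-like genes, 10 were higher in labelled cKO in replicate 1 and 3 in replicate 2, with medians of 0.05 and -0.16. H2-K1 differed by 0.20 and -0.16, H2-D1 by 0.08 and -0.16, and B2m by 0.23 and -0.06. Over all 36 members, 18 had opposite signs in the 2 pairs, 12 were lower in both and 6 higher in both, and the medians of all tested genes were -0.03 and 0.03. In 3 members (H2-M5, H2-T24 and Nlrc5) both labelled cKO libraries lay below both controls, which held for 8.42% of all genes, and in H2-M3 alone both lay above, which held for 5.47%. Nlrc5 differed by -0.45 and -0.31, and by -0.38 ± 0.16 with the block (limma adjusted p = 0.439). H2-M5 stood at 0.520 against 1.19 FPKM and 0.612 against 2.07, close to the limit for testing.

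**Figure D3:**
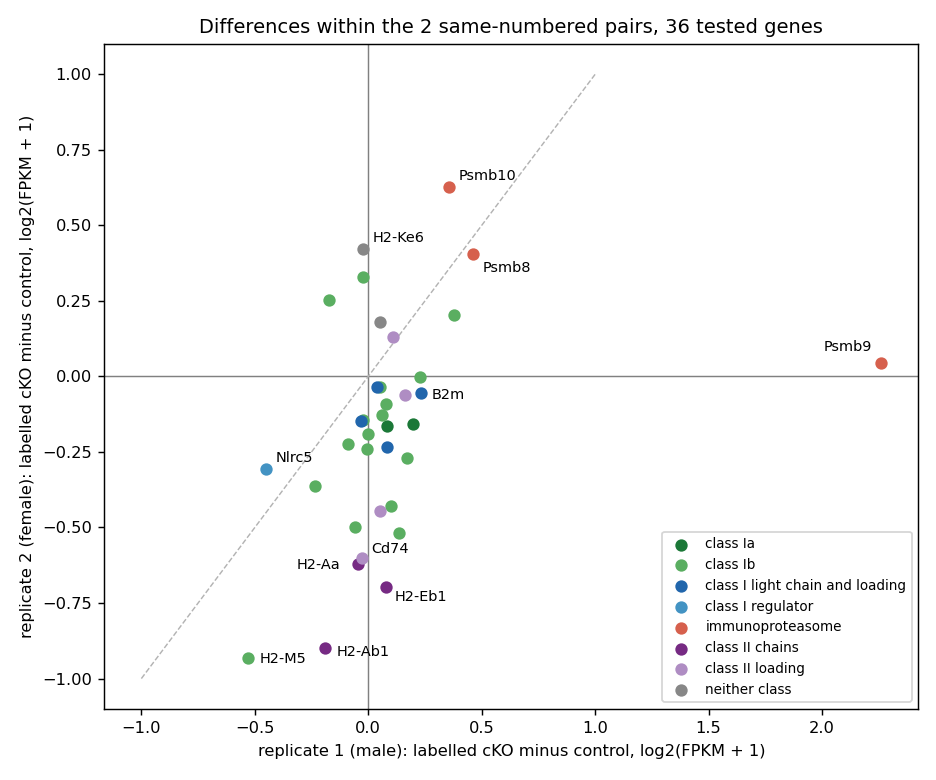
Labelled cKO minus control on the log2(FPKM + 1) scale within replicate 1 (x axis) and replicate 2 (y axis) for the 36 tested genes, coloured by role, with equal differences on the dashed line. Class II chains lie low on the y axis, at -0.62 to -0.90, and near 0 on the x axis, while Psmb8 and Psmb10 lie above 0 on both axes.

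The second comparison sets replicate 2 against replicate 1, which differ in sex, age and days of treatment, and possibly in preparation, and these cannot be told apart. On the FPKM scale 26 of the 36 tested members were called higher in replicate 2 and 0 lower, against 25.8% of all genes called higher and 24.1% called lower (50% in either direction). The members' median was 0.66 on the log2(FPKM + 1) scale, and that of all genes -0.00. In 31 of 36 members both replicate 2 libraries were above both replicate 1 libraries, against 37.9% of all genes, and in 1, Tapbp, both were below, against 37.5%.

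By role, all 3 immunoproteasome subunits were called higher. Psmb8 was higher by 1.51 ± 0.13 (limma adjusted p = 0.000339), Psmb10 by 1.34 ± 0.17 (0.00105) and Psmb9 by 2.62 ± 0.45 (0.00331). For Psmb9 the difference was 1.51 between the labelled cKO libraries and 3.72 between the controls. The subunits they replace were higher as well, Psmb5 by 1.10, Psmb6 by 1.06 and Psmb7 by 0.90, so that Psmb8 over Psmb5 ran 0.388, 0.305, 0.547 and 0.410 across the libraries.

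All 7 tested class II genes were also called higher, with a median of 1.01. H2-Aa was higher by 1.16 ± 0.17 (limma adjusted p = 0.00192), H2-Eb1 by 1.15 ± 0.20, H2-Ab1 by 1.10 ± 0.19 and Cd74 by 1.01 ± 0.17. The differences between the controls exceeded those between the labelled cKO libraries by value, except in H2-DMb2, at 0.66 against 0.68. They were 1.45 against 0.87 for H2-Aa and 1.29 against 0.72 for Cd74. This contrast was not tested. Among the pan-leukocyte markers, 11 of 11 were higher in control 2 than in control 1 and 7 of 11 in labelled cKO 2 than in labelled cKO 1, and their part in the result was not tested.

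Among class I and class I-like genes, 12 of 19 were called higher, with a median of 0.59. On the deposited scale H2-K1 was higher by 0.75 ± 0.14, H2-D1 by 0.70 ± 0.13 and B2m by 0.83 ± 0.14, but under quantile normalization, where the libraries are given equal distributions, the same values turned to -0.22, -0.18 and -0.17. Tap1 was called higher, by 0.59 ± 0.14, while Tap2 (0.25), Tapbp (-0.20) and Nlrc5 (-0.34, limma adjusted p = 0.119) were not called. H2-Ke6 and H2-Ke2, of neither class, were higher by 0.93 and 0.90, against 0.04 to 0.91 over the 19 class I and class I-like genes.

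The scale of the libraries bears on these calls. With each library scaled to an equal sum of FPKM, a setting chosen after seeing the data, the median of all genes moved to -0.49, and the calls over all genes from 3731 higher and 3490 lower to 1610 and 6917. On that scale 4 members (Psmb8, Psmb9, Psmb10 and H2-Aa) were called higher and 2 (Tapbp and Nlrc5) lower. Relative to the median of all genes, the members' median was 0.66 as deposited and 0.64 with equal sums. A common factor per library shifts members and all genes nearly alike, so these values could hardly differ. The same relative median was 0.60 under quantile normalization and 0.45 with a trend on locus span removed (described below). As a share of the summed FPKM, class I made 0.177, 0.173, 0.171 and 0.221% of the 4 libraries and the class II chains 0.00793, 0.00878, 0.00913 and 0.0179%, so that control 2 alone stood apart.

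Locus length and level moved with the same difference. Tested members had a median locus span of 8259 bases, against 25752 for all tested genes, and 16 of the 36 lay in the fifth with the shortest loci, where 50.4% of all genes were called higher and the median was 0.54. In the fifth with the highest mean FPKM, which holds 13 members, 55.6% of all genes were called higher. With the trend on locus span removed, a setting also added after seeing the data, 19 members were called, all higher, beside 3130 higher and 2961 lower of all genes. Without a filter on low values 0 members and 0 of all 37298 rows were called. There, 16 of the 53 members had an unadjusted limma p under 0.05, beside 7007 of all rows. With 1 library left out, a replicate keeps only 1 library, so effect sizes alone are given here. The members' median was 0.70 without labelled cKO 1 and 0.64 without control 1, against -0.03 and 0.03 for all genes. It was 0.74 without labelled cKO 2 and 0.63 without control 2, against 0.01 and -0.01.

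**Figure D4:**
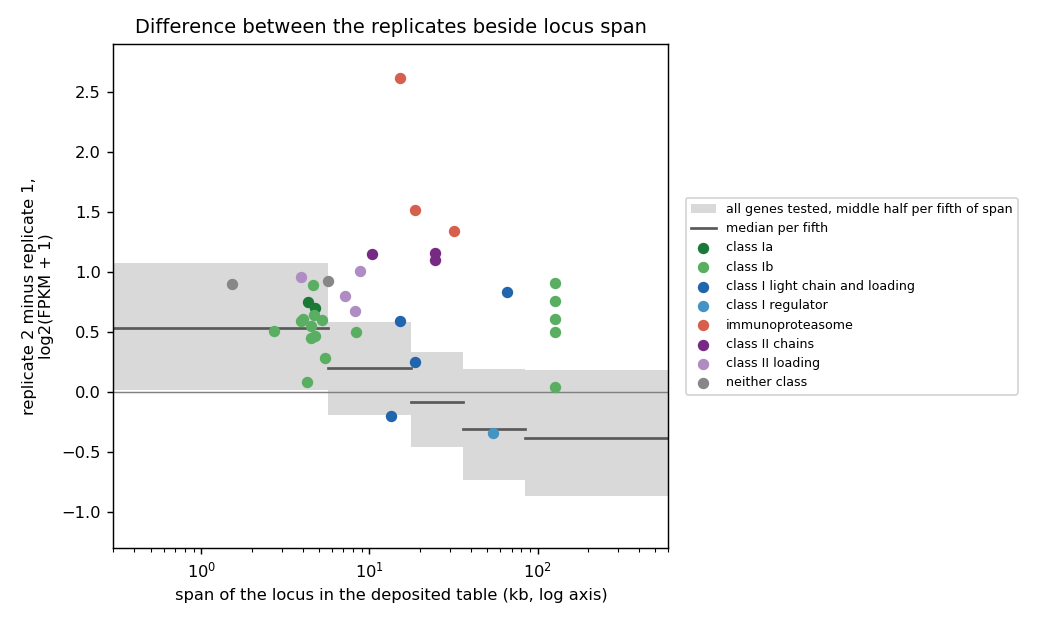
Replicate 2 minus replicate 1 on the log2(FPKM + 1) scale of the deposited values, against the span of each locus (kb, log axis), with the median (line) and the middle 50% (grey) of all tested genes in each of 5 equal classes of span. Immunoproteasome and class II genes, at 0.67 to 2.62, lie above the grey band of their class of span except H2-DMa, and most class I genes inside or near the band of the shortest loci; under quantile normalization H2-K1, H2-D1 and B2m turn to -0.22, -0.18 and -0.17.

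Other genes of the pathway, 40 in a list chosen for their known roles, were read in the same fits, and 37 were tested. Between labelled cKO and control none was called, the smallest unadjusted p with the block being that of Hfe, a class I-like regulator of iron uptake (0.56 ± 0.26, limma adjusted p = 0.474). Between the replicates 13 were called higher (35.1%, against 25.8% of all genes) and 9 lower (24.3%, against 24.1% of all genes). Higher were Ctsh, a lysosomal protease, by 1.31, and the standard proteasome subunits named above, and lower were Creb1, which binds class II promoters with the RFX factors, by -1.40, and Canx (calnexin), which folds new heavy chains, by -0.85. The RFX factors that work with CIITA were listed at 7.66 to 11.7 FPKM for Rfx5, 5.64 to 6.36 for Rfxank and 8.21 to 10.5 for Rfxap, well above Ciita itself.

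SOX9 peaks were then counted within 10 kb of each locus. The peak lists hold 8181 peaks (HFSC list 1), 2989 (HFSC list 2) and 5209 (IFE), as positions only, and the loci are those of the expression table, which merge neighbouring genes and give no strand. A peak lay within 10 kb of 10 of the 36 tested members in HFSC list 1 (34.9% of all tested genes), of 9 in HFSC list 2 (24.2%), of 9 in the IFE list (36.3%) and of 9 in both HFSC lists (15.6%). These 9 members stand on 5 distinct loci, so that the 25.0% they make of the members is not a count of separate sites.

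No class II gene, among them the 7 tested, had a peak within 10 kb in any list. The nearest lay 12277 bases from H2-DMa, inside the locus of Brd2, and, for Cd74, 15236 bases away in HFSC list 1 alone. H2-Aa and H2-Ab1, which share a merged locus, and H2-Eb1 had none within 50 kb. The absence depended on the window. At 50 kb 4 of the 7 tested class II genes had a peak in HFSC list 1 (57.1%, against 54.1% of all tested genes). In HFSC list 2 there were 3 (42.9%, against 38.6%) and in the IFE list 3 (42.9%, against 53.8%).

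Among class I genes, 5 of 19 had a peak in both HFSC lists, and they share 1 peak. H2-Bl, H2-T10, H2-T22, H2-T23 and H2-T24 are listed under 1 merged locus of 16 rows (chr17:36131397-36258410), which holds the peak chr17:36160877-36161493 in list 1 and chr17:36160809-36161372 in list 2, and no IFE peak. Its distance to the start of any of the 5 genes was not computed. For H2-K1 the nearest peak was 23950 bases away, in HFSC list 1. H2-D1 had a peak in the IFE list alone, inside its locus (chr17:35399794-35400401), with another 8628 bases from it.

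Of the 4 light chain and loading genes, B2m and Tapbp had a peak in both HFSC lists and Tap1 and Tap2 in neither. Next to the merged locus of B2m (chr2:121945843-122011925, shared with Patl2 and Trim69) both HFSC lists held a peak, 1363 bases away in list 1 (chr2:121944089-121944480) and 1428 in list 2 (chr2:121943779-121944415), within the loci of Eif3j and Spg11, and the IFE list held none there. Tapbp had a peak in all 3 lists, 1072, 1148 and 1146 bases outside its locus and inside Rgl2, and 1 more in the IFE list overlapping its locus. An IFE peak at chr17:34324552-34325167 lay inside the locus of Tap1 and Psmb9 and 9498 bases from that of Tap2 and Psmb8, and neither HFSC list held a peak within 10 kb of these 4 genes. Psmb10, whose merged locus also holds Lcat and Slc12a4, overlapped 2 peaks of HFSC list 1 and 1 of the IFE list and none of HFSC list 2. H2-Ke6 overlapped a peak of every list, also inside Rxrb and Slc39a7.

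**Figure D5:**
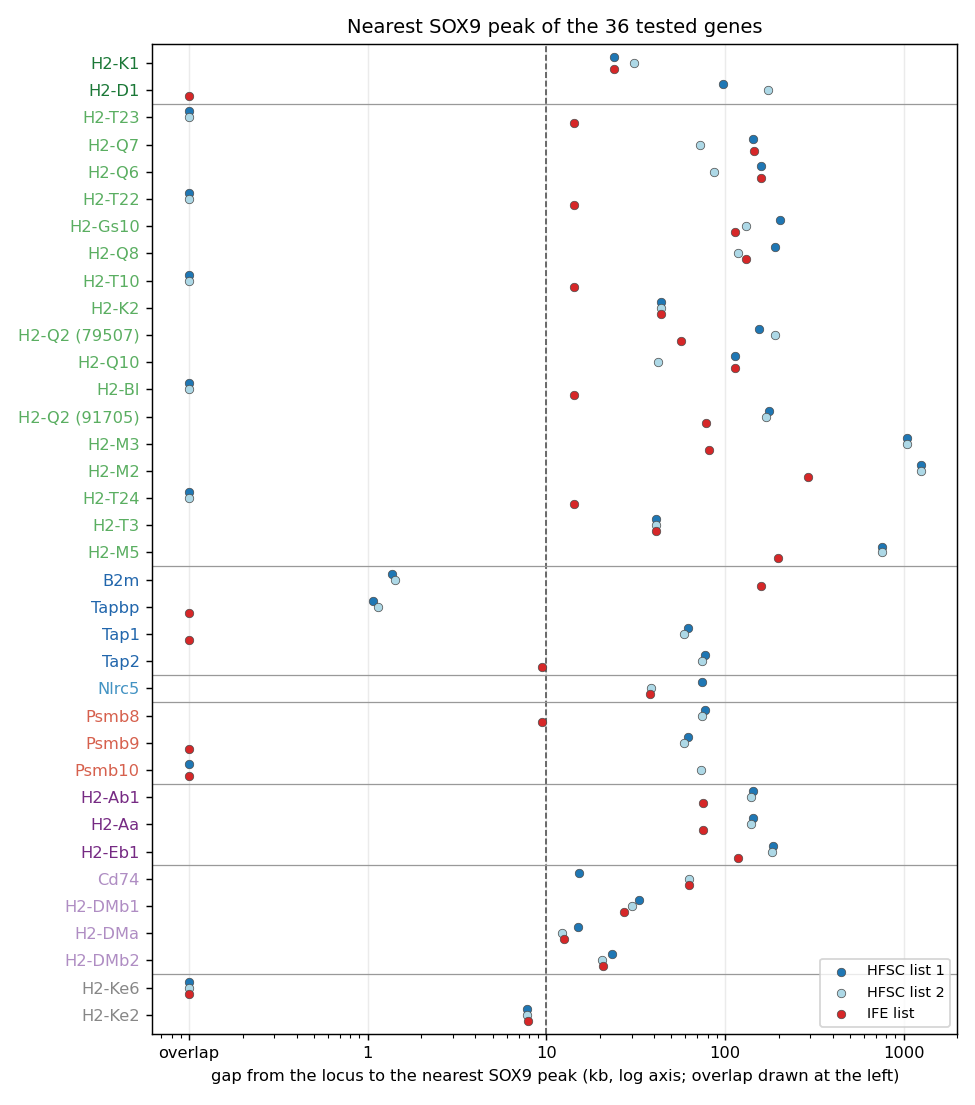
Gap from each locus to the nearest SOX9 peak (kb, log axis, overlaps drawn at the left, dashed line at 10 kb) for the 36 tested genes in the 3 peak lists. Class II genes lie to the right of the line in every list, and the 5 genes of the merged H2-T locus overlap the same HFSC peak.

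None of the members beside a peak of both HFSC lists was called between labelled cKO and control. Of all genes tested, 0% were called with genotype alone and 0.284% with the block. With the block, B2m differed by 0.09, Tapbp by -0.09, H2-T23 by 0.04 and H2-T22 by 0.11. H2-T10 differed by -0.19, H2-T24 by -0.09, H2-Bl by -0.05, H2-Ke6 by 0.20 and H2-Ke2 by 0.12. Within-pair differences had opposite signs in B2m, H2-T23, H2-T22, H2-T10, H2-Bl and H2-Ke6. Peak height is not in the lists, so strength of binding was not compared.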

How the data were processed

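RNA-seq of 4 HFSC libraries and 3 SOX9 ChIP-seq peak lists were used, and the input libraries were not. Expression was deposited by the authors as FPKM in 1 table, per the file headers. Peaks were deposited as positions. The tools in the submitters' processing notes are Bowtie, TopHat, TopHat2 and Cufflinks 1.0.3, and the build mm9. The peak caller is not named there or in the labels. FPKM keeps no depth, so no counting interval was computed.

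Values were tested as log2(FPKM + 1), on which low genes change less, with limma 3.58.1 in R 4.3.3 (mean trend, two-sided, Benjamini-Hochberg at 0.05) over 14455 genes whose FPKM averaged at least 1. Genotype was fitted alone, and with the replicate number as a block. The numbers pair the libraries: same-numbered libraries share sex, age and treatment days per the labels, and their deviations from the group means correlated at 0.812 over genes (genes are not independent). The replicate difference is the coefficient of that number. SEs are limma's.

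Every member with a mean of at least 1 FPKM was named, and of 40 other pathway genes up to 6 per comparison by smallest p. H2-K2 and H2-Gs10 were placed among the class I-like loci after the table was read. The members and lists were chosen with earlier results of these data known. Peaks count as shared at an overlap of at least 1 base. BED starts were raised by 1, and locus coordinates are as deposited.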

Additional observations from a re-analysis of the deposited data

How the results depend on the processing

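The count of members called between labelled cKO and control was 0 with the replicate block, and 0 in each of the other settings run (pseudocounts 0.1 and 5, filters, quantile, median and equal-sum scaling, no mean trend, the block combined with these, and each library left out in turn). Over all genes the block raised the calls from 0 to 41. With genotype alone and all 4 libraries, the other settings called 0 of all genes, except 4 higher and 3 lower without a filter. With the block they ranged from 0 (no filter, equal sums) to 31 higher and 47 lower (pseudocount 5). Few genes of any kind could thus be called, and the 0 of the members is near that background. Signs of uncalled members changed in 10 genes across settings and in 31 when 1 library was left out.

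Between the replicates, the 26 calls became 0 without a filter on low values, where all 37298 rows entered the fit, and 6 with equal FPKM sums, and ranged from 0 to 23 when 1 library was left out. Over all genes the 7221 calls became 0 without the filter and 1610 higher and 6917 lower with equal sums, and were 0 without labelled cKO 1 and 1 without control 1, the settings in which members fell to 0. The other settings gave 19 to 28. Under quantile normalization B2m turned to -0.17, H2-K1 to -0.22 and H2-D1 to -0.18 and Tapbp was called lower at -0.52, and with equal sums H2-Gs10 turned to -0.0535. The cause was not tested. Median scaling moved the median of all genes to 0.13 and their calls to 4573 higher and 2822 lower.

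The ratio of class I to class II chains became 0.692 with medians of tested members in place of sums, and ran from 18.7 to 19.7 when 1 library was left out. Members with a peak in both HFSC lists numbered 6 to 12 for windows of 0 to 50 kb. They made 16.7% of tested members at 0 kb (against 11.9% of all tested genes) and 33.3% at 50 kb (against 26.5%). In the IFE list they rose from 9 (25.0% of members, against 36.3% of all tested genes) to 15 at 20 kb (41.7% against 41.6%) and 21 at 50 kb (58.3% against 53.8%). With 2 libraries a group, few sizes of effect can be told from the spread, and the depth is unknown.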

Other observations

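The genes of the Tap1 and Psmb9 pair, whose promoter windows overlap, did not keep a fixed proportion. Psmb9 stood at 0.182 of Tap1 in labelled cKO 1, 0.0201 in control 1, 0.413 in labelled cKO 2 and 0.339 in control 2. Tap1 over Tap2, the chains of one transporter, ran 1.01, 0.985, 1.19 and 1.37. Psmb8 over Tap2, which share a merged locus, ran 0.437, 0.319, 1.09 and 0.798. The class II chains, by contrast, held H2-Eb1 at 0.601 to 0.748 of H2-Ab1. These are ratios within a library, which show unequal levels and not which gene differed.

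Across the stretch of chromosome 17 that holds 47 of the 53 rows (chr17:34052843-37620497, 3.57 Mb), HFSC list 1 held 26 SOX9 peaks, HFSC list 2 held 18 and the IFE list 23. All of chromosome 17 held 336, 133 and 242 peaks in the same lists. Whether the stretch is rich or poor in peaks was not tested. Within 10 kb of any of the genes, on any chromosome, the 3 lists held 7, 4 and 8 distinct peaks.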
